A study of Homo sapiens with 6 samples.

Results

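The genes described here encode 9 transcription factors of epithelial-mesenchymal transition (EMT): the zinc finger proteins SNAI1 (Snail), SNAI2 (Slug) and SNAI3, the zinc finger and homeobox proteins ZEB1 and ZEB2, the basic helix-loop-helix proteins TWIST1 and TWIST2, and the paired-related homeobox proteins PRRX1 and PRRX2. They were chosen by name, and all 9 had a row in the count table of 56505 rows. Of these, 8 passed the filter on low counts and were among the 19567 genes tested, and SNAI3 had no count. RNA was sequenced from cells labelled MDA-MB-468, an established human triple-negative, basal-like breast cancer line grown in serum-supplemented medium without further treatment. In 3 libraries the cells carried a short hairpin RNA against cytokeratin 5, the product of KRT5 (shCK5-22 in the titles, shCK5 here), and in 3 they carried a control hairpin (shControl), both in the vector labelled pLK0. A single hairpin against KRT5 was used. Whether replicates are separate cultures is not in the labels, and the p-values reflect library-to-library spread alone, possibly technical.

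EMT is a change of state in which epithelial cells lose adherens and tight junctions and take on mesenchymal filaments and matrix. SNAI and ZEB proteins bind E-box sequences in the promoters of epithelial genes, among them CDH1, the gene of E-cadherin, and repress them through recruited corepressors. TWIST proteins bind E-boxes as dimers with E proteins, and PRRX proteins are homeobox factors of embryonic mesenchyme. ZEB1 and ZEB2 are held down in epithelial cells by microRNAs of the miR-200 family, which ZEB proteins repress in turn.

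Total gene counts were 75460940 to 83594772 per shCK5 library and 68810882 to 75529699 per shControl library. Levels are in CPM, the count per 1000000 counts of a library after TMM scaling of its size. KRT5 averaged 16.4 ± 0.844 CPM in shCK5 and 2044 ± 23.3 CPM in shControl (SD, n = 3 each). The shCK5 libraries did not match their cell line label for RB1 and SMAD4, tumour suppressor genes that are known to be deleted in MDA-MB-468. RB1 averaged 100.9 ± 2.16 CPM in shCK5 and 2.00 ± 0.136 CPM in shControl, and SMAD4 16.9 ± 0.547 and 0.235 ± 0.138 CPM (SD, n = 3 each). An effect of the hairpin and a difference in the cells' origin therefore cannot be told apart for any gene below. Of all genes tested, 82.7% passed the threshold (edgeR's quasi-likelihood test, Benjamini-Hochberg adjusted p under 0.05), made up of 40.9% higher and 41.7% lower in shCK5. In 84.2% of genes tested the shCK5 and shControl libraries had no overlap in value.

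Of the 9 genes, 3 were higher in shCK5 (SNAI2, ZEB1 and ZEB2), 3 were lower (TWIST2, PRRX1 and PRRX2), 2 did not pass the test (SNAI1 and TWIST1) and 1 was not tested (SNAI3). The 6 calls among 8 genes tested are close to the background share of 82.7%, and 7 of the 8 had groups without overlap, against 84.2% of all genes tested. All 6 called genes differed by more than 2-fold, as did 53.2% of all called genes (44% of all genes tested), and an absolute log2 fold change at least that of ZEB1 was found in 2.12% of genes tested. Of the 8 tested, 3 (SNAI2, ZEB2 and PRRX1) had no count in at least 1 library of a group, and they passed the filter through the other group. PRRX2 had 4 counts in shCK5 replicate 2 and TWIST1 had 8 in shControl replicate 2, under the filter's minimum of about 10. They too met it in every library of the other group only. A call with no count in any shControl library, as for SNAI2, was made for 0.726% of genes tested, and a call with no count in any shCK5 library, as for PRRX1, for 0.429%.

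**Figure D1:**
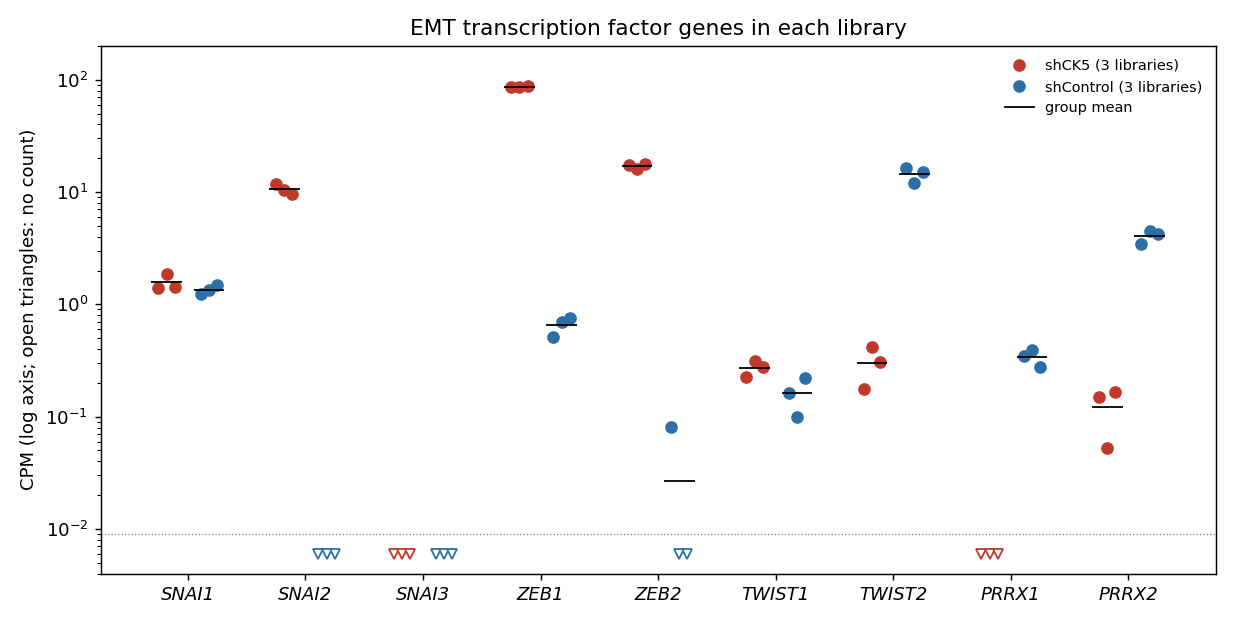
Levels of the 9 genes in CPM (log axis) in each shCK5 library (red, left) and shControl library (blue, right), with group means as black lines and open triangles for libraries with no count. ZEB1, ZEB2 and SNAI2 stand high in shCK5, TWIST2, PRRX2 and PRRX1 in shControl, and SNAI1 is alike in both, with overlapping groups.

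The SNAI genes encode repressors that bind E-boxes through C-terminal zinc fingers. SNAI2 (ENSG00000019549.11, chromosome 8, 48917604 to 48921740, minus strand, GRCh38) reached 11.9, 10.4 and 9.70 CPM in shCK5 (942, 794 and 702 counts) and had no count in any shControl library. The 3 shCK5 libraries were all high and the groups did not overlap. SNAI2 was at least 803-fold higher in shCK5, against a floor of 3 counts over the 3 shControl libraries (0.0133 CPM; edgeR adjusted p = 2.17e-20 with Benjamini-Hochberg adjustment). SNAI1 (ENSG00000124216.3, chromosome 20, 49982999 to 49988886, plus strand) had 1.41, 1.86 and 1.44 CPM in shCK5 and 1.24, 1.35 and 1.48 CPM in shControl. These groups overlapped, and the log2 fold change, 0.21 with an SE of 0.181, did not pass (edgeR adjusted p = 0.277). SNAI3 (ENSG00000185669.5, chromosome 16, 88677682 to 88686493, minus strand) had no count in any library. A share of 9.41% of its exon bases lies in exons of SNAI3-AS1 on the opposite strand, where reads may have gone uncounted, and rows of widely expressed genes such as UBE2V1 and ITGA5 also stood at 0 throughout, so absence of SNAI3 transcript was not inferred. SNAI3-AS1 itself had 3.12 ± 0.336 CPM in shCK5 and 3.48 ± 0.284 CPM in shControl (SD, n = 3 each), and did not pass.

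The ZEB genes encode large repressors with a zinc finger cluster at each end. ZEB1 (ENSG00000148516.21, chromosome 10, 31318495 to 31529814, plus strand) had 86.5, 86.0 and 87.6 CPM in shCK5 and 0.510, 0.702 and 0.752 CPM in shControl. It was the most abundant of the 9 in shCK5 in CPM and was low, though above 30 counts, in every shControl library. Its log2 fold change was 7.05 (SE 0.119, edgeR adjusted p = 3.91e-30), or 132-fold. ZEB2 (ENSG00000169554.19, chromosome 2, 144364364 to 144524583, minus strand) had 17.3, 16.2 and 17.8 CPM in shCK5, against 0.0805 CPM from 6 counts in shControl replicate 1 and no count in the other shControl libraries. The ratio of pooled levels was 644, with an exact 95% interval of 296 to 1755 that covers counting error only. The fitted log2 fold change of ZEB2, 9.24 (SE 0.716, edgeR adjusted p = 2.30e-22), was 13.34 without shControl replicate 1 and 8.65 without shControl replicate 2. Among the nonzero counts of the 9 genes, 35 of 40 were even numbers, against 64% of all counts above 20 in the table, as would be seen if both mates of a read pair added a count, in which case the intervals built from counts are too narrow and the bounds set against the floor of 3 counts (SNAI2, PRRX1 and MSX2) are too large.

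The TWIST genes moved differently from each other. TWIST2 (ENSG00000233608.3, chromosome 2, 238848032 to 238910543, plus strand) had 0.176, 0.420 and 0.304 CPM in shCK5 and 16.3, 12.1 and 15.2 CPM in shControl. All shControl libraries were high and the groups did not overlap. Its log2 fold change was -5.60 (SE 0.243, edgeR adjusted p = 2.46e-20), a level 48.5 times lower in shCK5. TWIST1 (ENSG00000122691.12, chromosome 7, 19020991 to 19117672, minus strand) was near the limit of detection in both groups, with 18, 24 and 20 counts in shCK5 and 12, 8 and 16 counts in shControl. Its values, 0.227 to 0.315 CPM in shCK5 and 0.10 to 0.223 CPM in shControl, did not overlap, but the log2 fold change of 0.76 (SE 0.447) did not pass (edgeR adjusted p = 0.114).

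The PRRX genes were both lower in shCK5. PRRX2 (ENSG00000167157.10, chromosome 9, 129665641 to 129722674, plus strand) had 0.151, 0.0524 and 0.166 CPM in shCK5, from 12, 4 and 12 counts, and 3.48, 4.49 and 4.21 CPM in shControl. The shControl libraries were all high, and the log2 fold change was -5.03 (SE 0.335, edgeR adjusted p = 8.60e-16), or 32.9 times lower. PRRX1 (ENSG00000116132.11, chromosome 1, 170662728 to 170739419, plus strand) had no count in shCK5 and 26, 31 and 20 counts in shControl, which is 0.349, 0.389 and 0.279 CPM. It was at least 25.7-fold lower in shCK5 (edgeR adjusted p = 2.40e-07). PRRX1 was scarce even where it was found.

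Per length, different genes made up the set in each group. Here a level is CPM per kb of the merged exons of a gene in GENCODE v29. The 9 genes summed to 15.2 ± 0.187 CPM per kb in shCK5 and 11.8 ± 0.846 CPM per kb in shControl (SD, n = 3 each). In shCK5, ZEB1 took 66.1% of that sum (65.2% to 67.6% over libraries) and SNAI2 took 20.7% (19.1% to 22.8%). In shControl, TWIST2 took 65.2% (59.5% to 70.9%) and PRRX2 took 26.3% (21.6% to 31.5%). SNAI1 took 6.14% in shCK5 and 6.81% in shControl. Within the SNAI family, SNAI2 held 77.1% of the level per length in shCK5, while in shControl all of it was SNAI1. Within the TWIST family, TWIST2 held 53.1% in shCK5 and 99.0% in shControl.

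The order of levels per length in shCK5 was ZEB1 (10.0 ± 0.0913 CPM per kb), SNAI2 (3.14 ± 0.325), SNAI1 (0.931 ± 0.150), ZEB2 (0.682 ± 0.0325), TWIST2 (0.160 ± 0.0648), TWIST1 (0.134 ± 0.0217) and PRRX2 (0.0939 ± 0.0470; SD, n = 3 each). The last 3 overlapped in their library values, and the others did not overlap their neighbours in that order. In shControl the order was TWIST2 (7.74 ± 1.15 CPM per kb), PRRX2 (3.09 ± 0.398), SNAI1 (0.804 ± 0.0718), TWIST1 (0.0794 ± 0.0302), ZEB1 (0.0757 ± 0.0148), PRRX1 (0.0411 ± 0.00675) and ZEB2 (0.00107 ± 0.00186; SD, n = 3 each). There, TWIST1 overlapped ZEB1, and ZEB1 did not overlap PRRX1. The place of ZEB2 depends on the length used: with the longest protein-coding transcript in place of the merged exons, an alternative added after the data were seen, ZEB2 had 1.78 ± 0.0848 CPM per kb in shCK5 and stood above SNAI1, at 0.931. With that length in shControl, ZEB1 averaged 0.1045 CPM per kb and TWIST1 0.0969, and the library values of ZEB1 overlapped those of PRRX1.

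**Figure D2:**
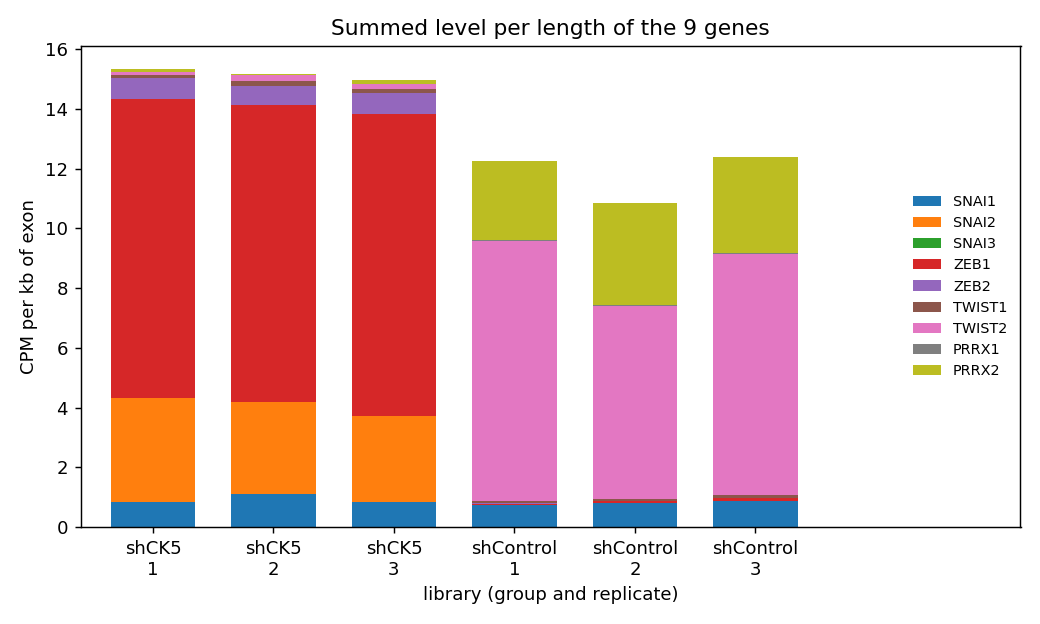
Stacked levels of the 9 genes in CPM per kb of exon (linear axis from 0) in each library, shCK5 on the left and shControl on the right. ZEB1 and SNAI2 fill most of the shCK5 bars, and TWIST2 and PRRX2 most of the shControl bars, while SNAI1 forms a band of like height at the foot of all 6.

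The nearest protein-coding gene on each side was read beside each factor, to show whether it differed alone or with its surroundings. Next to ZEB1, ZNF438 (286.6 kb away) and ARHGAP12 (275.6 kb away) had log2 fold changes of 1.33 (SE 0.0936) and 0.90 (SE 0.0418), against 7.05 for ZEB1. Next to ZEB2, GTDC1, 31.8 kb away, had -0.66 (SE 0.0804), and ACVR2A, 3320 kb away, had -0.41 (SE 0.103). Both were lower in shCK5 where ZEB2 was higher. Next to TWIST2, ASB1 (395.8 kb away) had 0.44 (SE 0.0379) and HDAC4 (137.6 kb away) -0.43 (SE 0.0409), against -5.60. PRRX2 lies between ASB6 (0.81, SE 0.0453) and PTGES, the gene of a prostaglandin E synthase (0.47, SE 0.0398), both higher in shCK5 where PRRX2 was lower. All these neighbours passed the edgeR test, with adjusted p up to 0.000783. Beside PRRX1, GORAB had 0.32 (SE 0.0575), and MROH9 went the way of PRRX1, with 0.0175 ± 0.0303 CPM in shCK5 and 0.453 ± 0.0937 CPM in shControl (log2 fold change -4.56, SE 0.945; -8.10 without shCK5 replicate 2).

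Around the SNAI genes and TWIST1 the neighbours gave less. SNAI1 lies beside RNF114, at 106.2 ± 1.79 CPM in shCK5 and 100.8 ± 1.23 CPM in shControl (SD, n = 3 each), on the log2 scale 0.07 (SE 0.029) with an edgeR adjusted p of 0.0211, which turned to -0.06 with scaling by total counts alone and did not pass without shCK5 replicate 2 (adjusted p = 0.0501) or without shControl replicate 2 (adjusted p = 0.0522). TWIST1 lies 18.6 kb from HDAC9, a histone deacetylase gene, which had 53.3 ± 2.58 CPM in shCK5 and 19.9 ± 1.23 CPM in shControl (log2 fold change 1.43, SE 0.0478). Beside SNAI3, MVD, a gene of sterol synthesis, had a log2 fold change of -2.67 (SE 0.0326) and RNF166 of 0.64 (SE 0.0627). The neighbours UBE2V1 of SNAI1, EFCAB1 of SNAI2 and FERD3L of TWIST1 had no count in any library, and PPDPFL on the other side of SNAI2 was not analysed here.

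**Figure D3:**
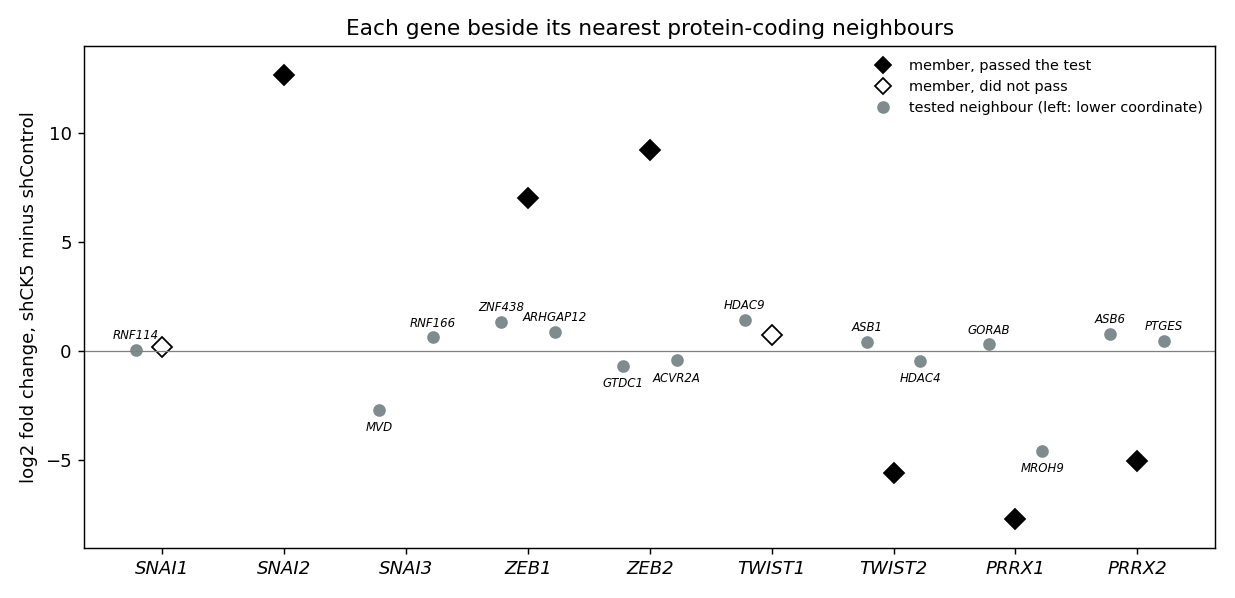
Log2 fold change (shCK5 minus shControl) of each factor (diamonds) and of its nearest tested protein-coding neighbours (grey points, lower coordinate on the left). The diamonds of ZEB1, ZEB2, TWIST2, PRRX1 and PRRX2 lie farther from 0 than the neighbours tested beside them, and SNAI2 had no tested neighbour; the positions of SNAI2 and PRRX1, which had no count in a group, are fitted values that depend on the prior count.

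ZEB1 and ZEB2 are the known targets of the miR-200 family, whose members fall into a pair of seed groups, and MIR205, another epithelial microRNA gene, is often listed with them. The mature sequences are shown because the finding on ZEB1 and ZEB2 can be read against them; capitals mark the seed (bases 2 to 8), and the sequences are those of RefSeq on GRCh38.p14.
miR-200b-3p: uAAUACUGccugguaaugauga
miR-200c-3p: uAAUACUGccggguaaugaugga
miR-429: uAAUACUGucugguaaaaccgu
miR-200a-3p: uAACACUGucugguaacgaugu
miR-141-3p: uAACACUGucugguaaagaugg
miR-205-5p: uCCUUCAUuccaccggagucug
The genes of miR-200b, miR-200a and miR-429 lie together on chromosome 1 and those of miR-200c and miR-141 on chromosome 12.

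The complement of a seed was counted on the sense strand in the longest 3′ UTR of each gene in GENCODE v29, as a description of letters and not of binding. ZEB1 (3′ UTR of 2549 bases) holds 6 matches to the seed of miR-200b-3p and its group (CAGTATT) and 3 to the seed of miR-200a-3p and its group (CAGTGTT). Among the 2555 genes whose 3′ UTR is at least 0.8 times as long and at most longer by the inverse of that factor, 26.7% hold at least 1 CAGTATT and 0.0391% hold 6 or more. These shares count ZEB1 itself. ZEB2 (5370 bases) holds 5 CAGTATT and 4 CAGTGTT matches. Of 1172 genes of like UTR length, ZEB2 itself included, 46.8% hold at least 1 CAGTATT and 0.171% hold 5 or more. SNAI2 holds 1 CAGTATT, and none was found in the 3′ UTRs of SNAI1, SNAI3, TWIST1, TWIST2, PRRX1 and PRRX2. ZEB1 also holds 1 match to the miR-205 seed (ATGAAGG), as do 19.3% of genes of like UTR length. The windows below show 1 match of each seed group in each ZEB gene, with the match in capitals.
ZEB1, chr10:31527622-31527650, plus strand, GRCh38: ttttatcttatCAGTATTatcactcttat
ZEB1, chr10:31528035-31528063, plus strand, GRCh38: atcatcagaatCAGTGTTtgtgattgtgt
ZEB2, chr2:144389042-144389070, minus strand, GRCh38: ctaccatacatCAGTATTtttattattat
ZEB2, chr2:144389226-144389254, minus strand, GRCh38: aaaattttgtaCAGTGTTaaggcctaaaa

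The rows of the chromosome 1 microRNA genes were lower in shCK5, the libraries in which ZEB1 and ZEB2 were higher (rows chosen after the data were seen). They count RNA from the hairpin genes or their primary transcript, not mature microRNA. MIR200B had 2, 2 and 0 counts in shCK5 and 61, 44 and 55 counts in shControl, a ratio of 40.3 in the lower direction (exact 95% interval 15.5 to 149.9; edgeR adjusted p = 4.95e-09). MIR200A had 1, 0 and 6 counts in shCK5 and 52, 26 and 23 counts in shControl, 14.6 times lower (interval 6.81 to 37.1; adjusted p = 9.33e-06). Of the 7 counts of MIR200A in shCK5, 6 came from replicate 3, and its fitted log2 fold change of -3.79 was -5.79 without that library. MIR429 had 4, 4 and 2 counts in shCK5 and 60, 44 and 40 counts in shControl, 14.5 times lower (interval 7.67 to 30.9; adjusted p = 4.96e-08). In all 3 rows the groups did not overlap, at levels below 1 CPM, as in 84.2% of all genes tested. Of all genes tested, 41.7% were lower in shCK5. The 3 rows passed the filter on low counts through shControl. MIR200C, MIR141 and MIR205 had no count in any library, which in this table need not mean absence. MIR205HG, the host transcript of MIR205, had 2.19, 1.90 and 1.81 CPM in shCK5 and 45.6, 43.1 and 47.9 CPM in shControl (log2 fold change -4.53, SE 0.0834, edgeR adjusted p = 3.57e-26).

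**Figure D4:**
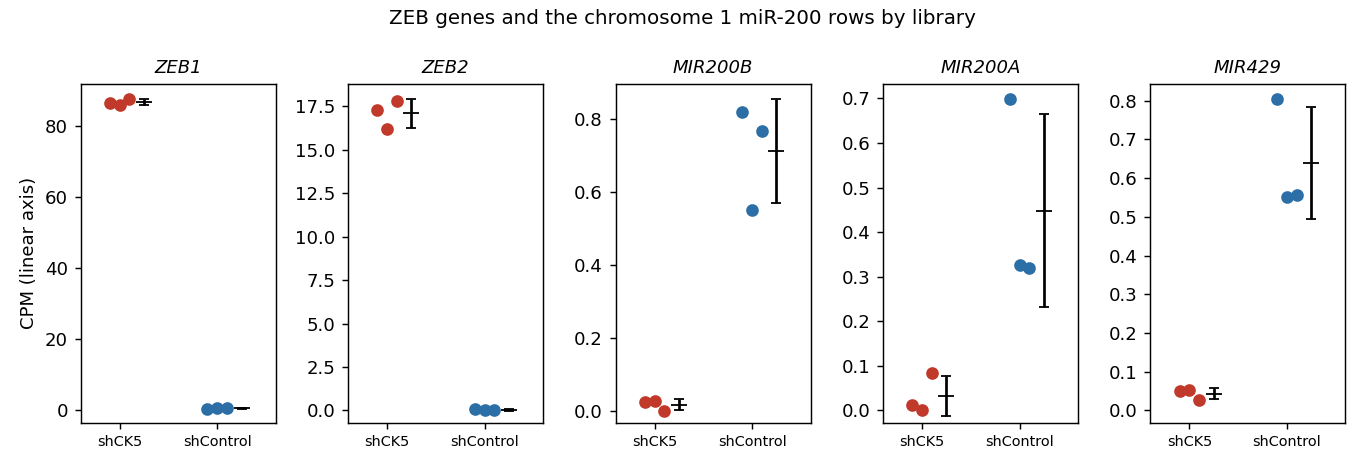
Levels in CPM (linear axes, each its own scale) of ZEB1, ZEB2 and the MIR200B, MIR200A and MIR429 rows in the 3 shCK5 libraries (left) and 3 shControl libraries (right), with mean and SD in black. The ZEB genes are near 86.7 and 17.1 CPM in shCK5 and below 1 CPM in shControl, and the microRNA rows are below 0.1 CPM in every shCK5 library and between 0.320 and 0.819 CPM in shControl.

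ZEB1-AS1, which starts beside ZEB1 on the opposite strand, had 4.13 ± 0.197 CPM in shCK5 and 1.12 ± 0.0541 CPM in shControl (SD, n = 3 each; log2 fold change 1.88). Its exons share 4.23% of the exon bases of ZEB1, and without a stated strand setting reads of the partners cannot be told apart there. ZEB2-AS1 and PRRX2-AS1 had no count in any library, and MIR200CHG was not analysed here. Of the 6 antisense and host transcripts listed, 1 was higher, 1 lower, 1 did not pass and 3 were not tested, where 82.7% of all genes tested were called.

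Epithelial genes that SNAI or ZEB proteins are known to repress were mostly lower in shCK5. Of 24 such genes, all of them tested, 22 were lower and 2 higher, with a median log2 fold change of -3.43, against -0.0194 over all genes tested. Over all genes tested, 41.7% were lower and 40.9% higher. CDH1 had 3.40, 3.95 and 4.33 CPM in shCK5 and 119, 124 and 117 CPM in shControl (log2 fold change -4.95, SE 0.0629, edgeR adjusted p = 2.84e-29), every shControl library lying far above every shCK5 library. RAB25, a small GTPase gene of epithelial recycling endosomes, had 2.60 ± 0.130 CPM in shCK5 and 88.1 ± 1.49 CPM in shControl. TJP3, a tight junction scaffold gene, had 2.74 ± 0.574 and 90.3 ± 4.23 CPM, and ESRP1, a splicing regulator of epithelial isoforms, 8.31 ± 0.367 and 215 ± 4.25 CPM in the same order (SD, n = 3 each). The members that were higher in shCK5 were PKP2 (92.6 ± 5.36 against 49.0 ± 2.81 CPM), which encodes a desmosomal plakophilin, and CLDN4 (148 ± 3.19 against 83.3 ± 3.93 CPM), which encodes a claudin.

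The E-box bound by SNAI and ZEB proteins was searched as CACCTG on both strands (CAGGTG on the other) in the 250 bases before each start listed by RefSeq on GRCh38.p14. Promoters were found for 11 of the 24 epithelial genes, and 8 of them (72.7%) hold at least 1 match before a listed start. Of 10844 tested protein-coding genes with a listed promoter, 22% hold at least 1. The list was made of genes that SNAI or ZEB proteins are known to repress. A larger share can therefore follow from its choice, and the shares were not tested. Both genes with the largest number of matches were lower in shCK5: CRB3, a polarity gene, with 0.693 ± 0.191 CPM in shCK5 and 14.7 ± 0.218 CPM in shControl, and CLDN7, a claudin gene, with 4.84 ± 0.460 and 58.3 ± 1.51 CPM. So were 22 of the 24 listed genes and 41.7% of all genes tested. A relation between the number of matches and the fold change was not tested. CGN, CLDN3 and CLDN4 hold no match in these windows, and the first pair were also lower in shCK5. The windows of CRB3 (5 matches) and of the CLDN7 start with 4 matches are shown 5′ to 3′ with the matches in capitals; 0.074% and 0.122% of all 35116 windows hold at least as many.
CRB3, chr19:6464021-6464270, plus strand, GRCh38.p14: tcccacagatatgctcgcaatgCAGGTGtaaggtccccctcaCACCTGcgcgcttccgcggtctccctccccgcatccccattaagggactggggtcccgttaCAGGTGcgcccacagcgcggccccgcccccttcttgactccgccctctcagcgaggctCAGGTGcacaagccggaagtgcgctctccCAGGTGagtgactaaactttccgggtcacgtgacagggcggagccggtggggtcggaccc
CLDN7, chr17:7262479-7262728, minus strand, GRCh38.p14: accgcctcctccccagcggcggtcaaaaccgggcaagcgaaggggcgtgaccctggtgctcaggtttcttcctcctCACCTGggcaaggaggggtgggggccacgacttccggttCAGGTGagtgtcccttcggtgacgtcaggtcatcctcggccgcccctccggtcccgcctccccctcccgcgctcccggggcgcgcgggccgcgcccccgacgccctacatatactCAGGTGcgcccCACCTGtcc
A match is a string of letters and no evidence that a factor was bound there.

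Transcription factors that hold the epithelial state were also lower in shCK5. Of 17 such genes, 16 were lower and 1 was higher, with a median log2 fold change of -2.94, beside 41.7% lower and 40.9% higher over all genes tested. FOXA1, a pioneer factor of luminal cells, had 0.652 ± 0.0962 CPM in shCK5 and 34.8 ± 0.640 CPM in shControl, and OVOL2, a repressor of ZEB1, had 1.28 ± 0.142 and 42.6 ± 1.92 CPM. GRHL2, a grainyhead factor that also counters ZEB1, had 5.88 ± 0.784 CPM in shCK5 and 145 ± 0.850 CPM in shControl. ELF5, a factor of the luminal lineage, was low in both, with 0.0359 ± 0.0311 and 1.03 ± 0.134 CPM (SD, n = 3 each; log2 fold change -4.81, and -4.20 without shCK5 replicate 1). The member that was higher in shCK5 was KLF4, with 70.7 ± 1.80 against 10.51 ± 0.481 CPM.

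Mesenchymal genes were divided. Of 26, 21 were tested, 14 of them higher and 7 lower in shCK5, with a median log2 fold change of 2.29. The shares over all genes tested were 40.9% higher and 41.7% lower. VIM, which encodes vimentin, had 987, 999.8 and 974 CPM in shCK5 and 6.76, 7.44 and 6.52 CPM in shControl, without overlap (log2 fold change 7.16, SE 0.0428, edgeR adjusted p = 2.68e-34). CDH2, which encodes N-cadherin, was scarce, with 0.820 ± 0.131 CPM in shCK5 and 2 counts in shControl, both in replicate 3 (ratio 92.2, exact 95% interval 25.2 to 767; fitted log2 fold change 6.29, and 8.97 without that library). The fibrillar collagen gene COL5A1 had 271 ± 2.46 CPM in shCK5 and 0.734 ± 0.195 CPM in shControl, and COL6A1, a type VI collagen gene, 408 ± 8.04 and 0.0441 ± 0.0562 CPM (SD, n = 3 each; fitted log2 fold change of COL6A1 13.12, and 14.75 without shControl replicate 1). COL6A2, its partner chain, had 138 ± 3.78 CPM in shCK5 and 2 counts in shControl, and its fitted log2 fold change was 16.36 without shControl replicate 3, which held both. The lower genes were COL5A2, MMP2, TNC, SPARC, TAGLN, COL1A1 and CD44, with log2 fold changes of -5.79 to -0.06. CD44 differed least, with 873.9 ± 6.97 CPM in shCK5 and 911.5 ± 12.9 CPM in shControl (SD, n = 3 each). Its change was smaller in size than the median over all genes with scaling by total counts alone, -0.156. COL1A2 and COL3A1, genes of the major fibrillar collagens, averaged 0.14 CPM or less in both groups, and POSTN, which encodes periostin, had no count.

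**Figure D5:**
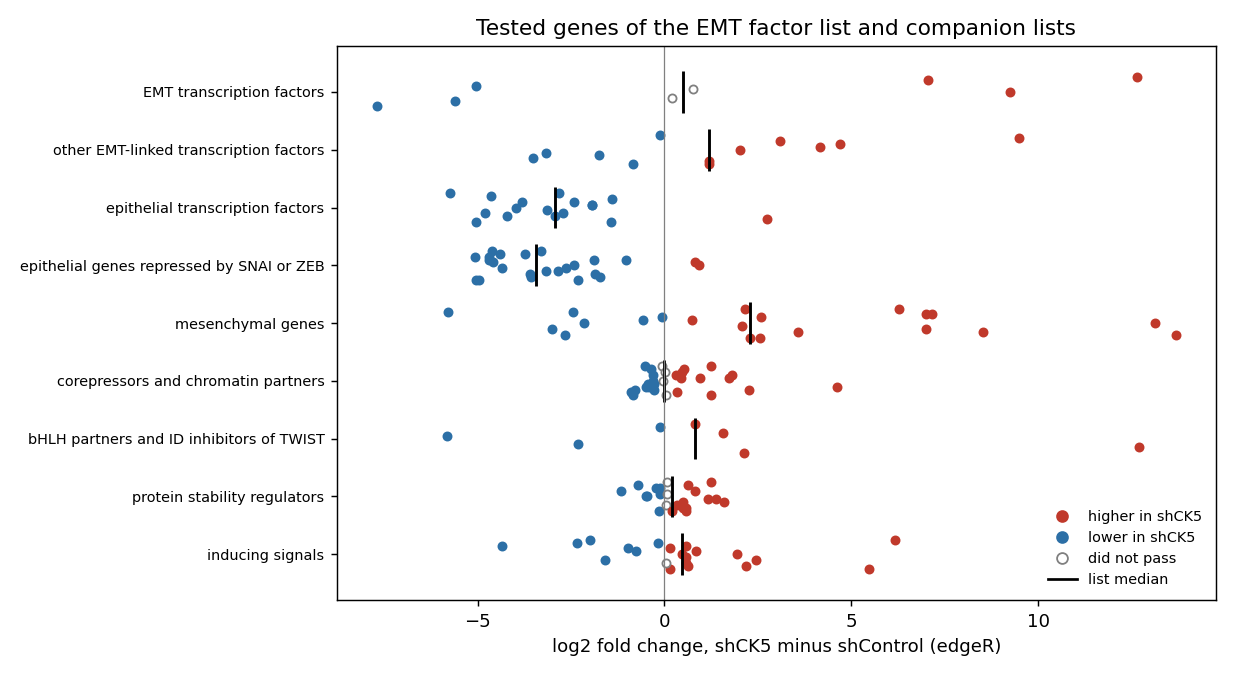
Log2 fold change (shCK5 minus shControl, edgeR) of every tested gene of the EMT factor list and of 8 companion lists, with list medians as black bars. The factors spread to both sides of 0, the epithelial lists lie mostly to the left with medians of -3.43 and -2.94, and the mesenchymal list lies mostly to the right with a median of 2.29; genes with no count in a group are placed at fitted values.

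Other transcription factors linked to EMT also went both ways. Of 17, 12 were tested, and 7 were higher and 5 lower in shCK5 (median log2 fold change 1.20), where 82.7% of all genes tested were called. MSX2, a homeobox gene, had 1.11, 1.29 and 1.19 CPM in shCK5 and no count in shControl (at least 90.0-fold higher). FOSL1, an AP-1 subunit gene, had 759 ± 29.7 CPM in shCK5 and 29.3 ± 2.33 CPM in shControl, and HMGA2, a chromatin architectural factor gene, had 61.9 ± 1.36 and 3.42 ± 0.237 CPM. KLF8, which encodes a repressor of CDH1, was lower, with 2.16 ± 0.0601 CPM in shCK5 and 24.6 ± 0.278 CPM in shControl.

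The partners of TWIST proteins were read next. Of 9 genes for E proteins, ID inhibitors and HAND factors, 7 were tested, 4 being higher and 3 lower (median log2 fold change 0.81), where 82.7% of all genes tested were called. TCF12, an E protein gene, had 67.5, 71.2 and 69.0 CPM in shCK5 and 2 counts in shControl, both in replicate 3 (ratio 7825, exact 95% interval 2166 to 64620; fitted log2 fold change 12.69, and 15.37 without that library). ID4 had 0.391 ± 0.117 CPM in shCK5 and 22.2 ± 2.68 CPM in shControl, and ID2 had 1.24 ± 0.116 and 6.12 ± 0.297 CPM, while ID1 was higher, with 70.9 ± 3.02 and 23.8 ± 1.27 CPM (SD, n = 3 each). ID proteins bind E proteins and keep them from DNA.

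Corepressors and chromatin partners of SNAI and ZEB, a list that also holds acetyltransferase genes, were called about as often as all genes tested. Of 28, 12 were higher, 12 lower and 4 did not pass, with a median log2 fold change of -0.01, beside 40.9% higher and 41.7% lower over all genes tested; with scaling by total counts alone 12 were higher and 16 lower. Of the direct ZEB corepressor genes, CTBP1 had 65.8 ± 1.23 CPM in shCK5 and 68.5 ± 3.39 CPM in shControl and did not pass. CTBP2 was higher in shCK5, with 120.4 ± 2.16 against 88.0 ± 2.01 CPM in shControl (log2 fold change 0.45, edgeR adjusted p = 4.51e-13). The largest differences were those of the acetyltransferase gene KAT2B (51.5 ± 1.30 against 2.07 ± 0.286 CPM), the lysyl oxidase-like gene LOXL2 (479 ± 6.60 against 100.2 ± 2.36 CPM), and the Polycomb genes BMI1 (20.1 ± 0.988 against 5.67 ± 0.909 CPM) and SUZ12 (149 ± 6.69 against 44.8 ± 1.92 CPM), each in shCK5 against shControl. Of 25 regulators of the stability of these proteins, 23 were tested, with 12 higher, 8 lower and 3 that did not pass (median 0.21). LATS2, a Hippo kinase gene, had a log2 fold change of 1.6, USP27X, a deubiquitinase gene of Snail, of 1.38, CSNK1E of 1.26 and FBXO45, a ubiquitin ligase gene, of 1.16.

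Of 23 signals known to induce EMT factors, 21 were tested, with 13 higher, 7 lower and 1 that did not pass (median log2 fold change 0.46). Of all genes tested, 82.7% were called, 40.9% higher and 41.7% lower. The ligand gene TGFB1 did not pass, with 44.8 ± 1.52 CPM in shCK5 and 43.3 ± 0.754 CPM in shControl. SMAD3, which carries the TGF-beta signal, had 319 ± 4.58 CPM in shCK5 and 58.6 ± 0.818 CPM in shControl, and its partner SMAD4 is given above. AXL, a receptor kinase gene, had 1774 ± 50.5 CPM in shCK5 and 40.02 ± 0.292 CPM in shControl. WNT5A, a non-canonical Wnt ligand gene, was lower, with 1.75 ± 0.299 CPM in shCK5 and 35.7 ± 0.791 CPM in shControl (SD, n = 3 each).

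The genes whose pattern over the 6 libraries was most like each factor were found by the Euclidean distance between centred log2 (CPM + 0.1) profiles among 13830 other protein-coding genes tested, a measure that the group difference dominates. For ZEB1 they were COL8A1 (distance 0.166), FST (0.240) and AFF3 (0.291). For ZEB2 they were CST1 (0.134), CCBE1 (0.251) and ZNF275 (0.259), and for SNAI2 they were COL6A3 (0.250), NUDT16L1 (0.266) and GRIK4 (0.279). TWIST2 was closest to ALOX15 (0.230), PAX7 (0.254) and DPYSL5 (0.365), and PRRX2 to TMPRSS4 (0.293), MPZL2 (0.311) and SYK (0.332).

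Markers of other cell types were read because fibroblasts express many of these factors. Of 12 fibroblast markers, 5 were tested, 1 higher and 4 lower in shCK5, and the list summed to 33.1 to 34.7 CPM in shCK5 and 544 to 546 CPM in shControl. FBLN1 alone gave 20.1 ± 0.852 CPM of the shCK5 sum and 521 ± 1.04 CPM of the shControl sum (SD, n = 3 each). FAP had 0.253 ± 0.0977 CPM in shCK5 and 6.04 ± 0.624 CPM in shControl, COL14A1 0.142 ± 0.0579 and 4.70 ± 0.400 CPM, and COL1A1 8.70 ± 0.927 and 12.9 ± 0.167 CPM, while PDGFRB was higher, with 4.36 ± 0.301 CPM in shCK5 and 0.476 ± 0.184 CPM in shControl. The markers THY1 and POSTN had no count in any library, and DCN, LUM, PDGFRA, COL3A1 and COL1A2 averaged at most 0.14 CPM in either group. Of 8 endothelial markers, 4 were higher and 3 lower of 7 tested, with sums of 120 to 129 CPM in shCK5, of which ESAM gave 118 ± 3.97, and 5.95 to 8.05 CPM in shControl; CDH5 averaged 0.0348 CPM in shCK5 and 1.30 CPM in shControl, PECAM1 4.23 and 2.21 CPM, and KDR 1.68 and 0.918 CPM. Of 10 leukocyte markers, 3 were lower and 1 did not pass of 4 tested, with sums of 2.89 to 3.82 CPM in shCK5 and 16.3 to 19.0 CPM in shControl. CSF1R had 1.85 ± 0.407 CPM in shCK5 and 11.6 ± 0.876 CPM in shControl, CD14 had 0.797 ± 0.217 and 5.02 ± 0.676 CPM, and PTPRC, the pan-leukocyte marker, had 0.0623 ± 0.0322 and 0.697 ± 0.137 CPM (SD, n = 3 each). Rows of CD3D, MS4A1 and CD68 stood at 0 in every library, which in this table need not mean absence. The part of these levels in the results was not tested. All 10 markers of a basal-like epithelial line were lower in shCK5, as were 41.7% of all genes tested. They include KRT5, the target of the hairpin, and genes such as CDH1 and EPCAM that were already counted among the epithelial genes above. KRT17 had 63.6 ± 3.65 CPM in shCK5 and 1082 ± 27.4 CPM in shControl. EPCAM had 26.6 ± 0.124 CPM in shCK5 and 316 ± 5.84 CPM in shControl, and KRT8, a simple-epithelial keratin gene, 765 ± 10.0 and 2168 ± 23.1 CPM (SD, n = 3 each). In bulk RNA, fewer cells that express a gene and less RNA per cell cannot be told apart. Of the receptors that define the triple-negative class, ESR1 had 0.545 ± 0.0387 CPM in shCK5 and 8.08 ± 0.666 CPM in shControl, and ERBB2 91.2 ± 0.968 and 70.0 ± 4.02 CPM (SD, n = 3 each).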

How the data were processed

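The authors deposited raw read counts per gene name for 6 libraries; STAR, Cufflinks, SAMtools, cutadapt and the build GRCh38 are named in the submitters' processing notes, and sorted BAM alignments were counted, per the file headers. What program counted them, with which annotation, strand setting and rule for multi-mapped reads, was not given in the sources used here. Depth was 68810882 to 83594772 counts per library; intervals and floors (3 counts over the libraries of a group) cover counting error only, since molecules were not tagged.

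From these counts, genes were filtered with filterByExpr (edgeR 4.0.16, R 4.3.3), scaled with TMM and compared with edgeR's quasi-likelihood test without covariates, adjusted by Benjamini-Hochberg over 19567 genes at 0.05; the code was tested on simulated data. Standard errors come from the fitted model's information matrix with the moderated quasi-dispersion; where a group had no count none is given. Alternatives were scaling by total counts, no filter, DESeq2 1.42.0, a replicate block and leaving out each library. Coordinates and lengths are from GENCODE v29 (GRCh38), and the authors may have used another annotation. Protein sequences were not used here.

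The genes and lists were chosen with earlier results of these data known. Named were the 9 factors, KRT5, CDH1, VIM, CDH2, RB1 and SMAD4, the 4 called genes per list with the largest fold change among those with a mean of at least 1 CPM in a group, the nearest neighbours and the 3 most similar profiles per called factor of at least 1 CPM. Other genes were named after their values were seen: SNAI3-AS1, the microRNA rows, PKP2, CLDN4, CRB3, CLDN7, CGN, CLDN3, KLF4, CTBP1, CTBP2, TGFB1, the lower mesenchymal genes, ITGA5, and markers named for absence or for their level. Some items that the rule names are not reported here.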

Additional observations from a re-analysis of the deposited data

How the results depend on the processing

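The 6 calls among the 9 factors (3 higher, 3 lower) were the same in number and direction under each of the 10 alternatives, and all 80 recomputed values of the 8 tested factors kept their direction and their side of the threshold. SNAI1 had adjusted p values of 0.167 to 0.706 and TWIST1 of 0.0723 to 0.357 over the alternatives. Of 890 values for 89 named genes, 887 stayed on their side; the exceptions were all of RNF114, whose log2 fold change was -0.06 when libraries were scaled by total counts alone and 0.07 without shCK5 replicate 2 or shControl replicate 2, where it did not pass. With that scaling the median over all genes was -0.156 on the log2 scale, against -0.0194 with TMM, and the test gave 7167 higher and 9118 lower genes, against 8012 and 8165. With it, 2 antisense and host transcripts were lower in place of 1, and without a filter on low counts 2 fibroblast markers were higher in place of 1 and 6 lower in place of 4. Scaling by total counts alone also gave 16 lower corepressors and chromatin partners in place of 12 and 11 higher inducing signals in place of 13. Leaving out 1 library gave 6 to 8 lower stability regulators (8 with all libraries), 6 to 8 lower mesenchymal genes (7) and 4 to 6 lower fibroblast markers (4). Same-numbered libraries did not deviate together (correlations of 0.00804, -0.015 and -0.00473, with no library correlating best with its own number). These correlations cannot show whether such libraries were cultured or prepared together, and no pairing was assumed. With a replicate block 7918 genes were higher and 8008 lower, and KRT5 had a log2 fold change of -6.96. Leaving out 1 library gave 7951 to 8058 higher and 8073 to 8165 lower genes. Depth limits PRRX1, TWIST1 and the low side of ZEB2, SNAI2 and PRRX2, which rest on few or no counts.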
